A study of Mus musculus with 20 samples.

Results

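The diurnal change of a transcript in liver is its level at 12 h minus its level at 0 h, and the subject here is how far that change differed between wild-type (WT) and *Crem* knock-out (KO) mice. All 20 of the 20 liver arrays of the series entered. They form 4 groups of 5 mice each, namely WT at 0 h, KO at 0 h, WT at 12 h and KO at 12 h, with 1 mouse per array. The KO mice are *Crem*-/- animals, so the gene is disrupted in every cell of the body and not in liver alone, and both genotypes share a mixed strain background, 129Pas x C57Bl/J. By their labels all mice were 8 weeks old and untreated, and they were fed freely and kept in 12 h of light and 12 h of darkness per day, and were killed when the lights came on (7 am, 0 h) or when they went off (7 pm, 12 h). In a supplementary animal list the number of KO mouse 1 at 0 h belongs to a pre-pubertal WT mouse. The array was kept under its label, and the main counts without it are given below. RNA of whole liver was hybridized to GeneChip Mouse Gene 1.0 ST arrays. For each probe set, the genotype difference in the diurnal change is the change in KO minus the change in WT on the log2 scale, and it was tested with limma over all 25689 probe sets with values. The arrays at 0 h carry 4 batch labels, each with both genotypes, and all arrays at 12 h carry another, batch 5. An additive shift between batch 5 and the others would therefore be in both changes and leave their difference. Shifts among the 0 h batches need not cancel, since batch 1 held 2 KO and 1 WT mice and batch 3 held 1 KO and 2 WT mice. The main fit had no batch term. The diurnal change of either genotype alone and the batch cannot be told apart. Only these 2 times were sampled, so a change in size and a shift in phase cannot be told apart either.

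CREM is a transcription factor that binds cyclic AMP response elements (CRE) in promoters, as its relatives CREB and ATF1 do. Its gene gives rise to activators and to repressors, among them the inducible repressor ICER, which is made from an internal promoter after cyclic AMP rises and then holds back further transcription. In liver, cyclic AMP is the second messenger of glucagon and turns on gluconeogenic genes through CREB. Liver transcripts also cycle over the day. The clock proteins BMAL1 (*Arntl*) and CLOCK activate the *Per*, *Cry* and *Nr1d* genes, whose products in turn repress them, and the output factors DBP, TEF and HLF carry the rhythm on to metabolic genes. In mice on free food, most feeding falls in the dark, so that 0 h lies at the end of the feeding phase and 12 h at the end of the rest phase.

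The full CRE, TGACGTCA, was searched for in promoters of genes named by a rule given below, of some further genes and of whole lists. These lists were the core clock, immediate early and gluconeogenic genes. Both strands were read, from 250 bases before to 50 bases after the gene start (RefSeq, GRCm38.p6). Of 15401 genes measured here with a promoter in that table, 2.71% held it. The stretches below show it, with the CRE in capitals, in 6 of the genes named below. *Slc25a36* is among the genes with the smallest p, *Hlf* is a clock output factor, and *Ndufa11* is a subunit of respiratory complex I. *Dusp1*, *Btg2* and *Maff* are immediate early genes. Of these 6, only *Slc25a36* and *Ndufa11* had an unadjusted p under 0.05 by limma.
*Slc25a36*, chr9:97111185-97111212, minus strand: gcgaacctcgTGACGTCAcgcggcctaa
*Hlf*, chr11:90390909-90390936, minus strand: gtgcgggcccTGACGTCActcttgtcag
*Dusp1*, chr17:26508598-26508625, minus strand: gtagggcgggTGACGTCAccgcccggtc
*Ndufa11*, chr17:56717594-56717621, plus strand: ttacctttccTGACGTCAcgggcgtctc
*Btg2*, chr1:134079304-134079331, minus strand: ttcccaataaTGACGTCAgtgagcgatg
*Maff*, chr15:79347481-79347508, plus strand: gctggggcggTGACGTCActgcatgact
Among 12 core clock genes whose promoters were at hand, 0 held the full CRE, as did 0 of 10 gluconeogenic genes and 3 of 20 immediate early genes. The shorter site TGACG, which every full CRE also contains, was in 27.8% of the promoters of genes measured here. These matches describe letters only and say nothing of binding.

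As a check of the labels, *Crem* itself was read first. Its log2 level in WT was 8.31, 8.11, 8.54, 8.42 and 8.24 at 0 h (mice 78, 80, 145, 146 and 147), and in KO it was 8.17, 7.43, 8.07, 7.87 and 7.69 (mice 1, 76, 77, 143 and 144). At 12 h the WT mice lay between 7.90 and 8.02 and the KO mice between 7.39 and 7.83. All KO mice were thus below all WT mice at 12 h, while at 0 h KO mouse 1, whose number is in doubt as said above, had the highest KO level and lay above WT mouse 80. The probe set averages probes along the whole gene, so it need not reach background in mice that lack a part of it. The diurnal change of *Crem* was -0.35 in WT and -0.24 in KO, a difference of 0.11 with a 95% interval from -0.23 to 0.45 (limma adjusted p = 0.931). It was 0.19 without KO mouse 1 and 0.00 without KO mouse 76.

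Array medians lay between 7.18 and 7.24 at 0 h and between 7.07 and 7.17 at 12 h, with a median of 7.11 over the WT arrays and 7.16 over the KO arrays at 12 h. Hepatocyte markers such as albumin and transthyretin were bright in every group, with a summed level of 16.9 to 17.06 on the log2 scale. Markers of the 9 other cell types are given further on.

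No probe set passed for the genotype difference in the diurnal change. limma called 0 of 25689 at an adjusted p under 0.05 (0.00%), and the smallest adjusted p was 0.475, shared by 10 probe sets. At an unadjusted p under 0.05 there were 1757 (6.84%), of which 908 had a more positive change in KO (3.53%) and 849 a more negative one (3.30%). The median difference over all probe sets was 0.00211 and its median size 0.105, while 358 probe sets (1.39%) differed by at least 0.5 and 37 (0.144%) by at least 1.0 in either direction. The median standard error of a difference was 0.138, and its 95% interval reached a median of 0.287 to either side. Without KO mouse 1 there were 0 called and 1719 at an unadjusted p under 0.05. No gene named below passed the adjusted threshold.

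To describe which diurnal changes were smaller or larger in KO, probe sets were first chosen by their average change over both genotypes. This choice weights WT and KO equally. It favours neither sign of the difference where both genotypes vary equally, but would favour damped signs where WT varies more than KO. It called 10108 of 25689 probe sets (39.3%) at an adjusted p under 0.05, 4651 higher and 5457 lower at 12 h. A diurnal change is called damped below where the KO change was smaller in the direction of the average change, and enlarged where it was larger, both as signs of measured values and not as tested calls. Of the 10108, 5980 were damped (59.2%) and 4128 enlarged (40.8%). Among those at an unadjusted p under 0.05, 570 were damped (5.64% of all diurnal probe sets) and 237 enlarged (2.34%). The share damped was 59.1% among probe sets higher at 12 h and 59.2% among those lower at 12 h. Counts of damped or enlarged list members below are to be set against the 59.2% and 40.8% over all diurnal probe sets.

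**Figure D1:**
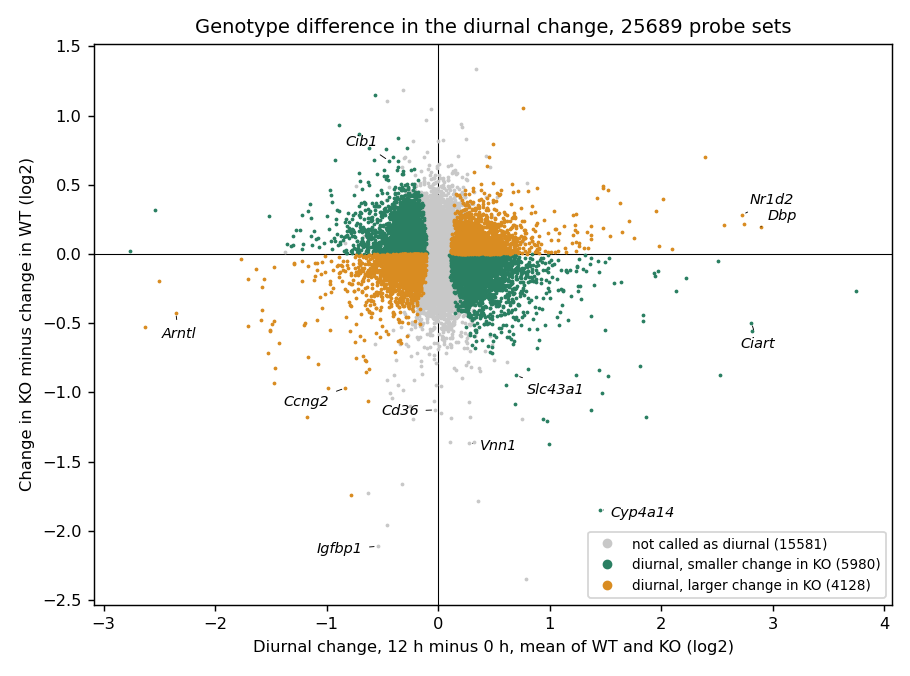
Each point is 1 of 25689 probe sets, with the mean diurnal change of WT and KO on the horizontal axis and the change in KO minus the change in WT on the vertical axis, both as log2. Green points (5980) are called as diurnal and had a smaller change in KO, orange points (4128) a larger one, and grey points were not called as diurnal. None of the vertical values passed the adjusted threshold.

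The typical damping was small against the change itself. Turned by the sign of the average change, the median difference over the diurnal probe sets was -0.035, against a median size of the average change of 0.278. Among probe sets with an average change between 1 and 2, 77 of 158 were damped (48.7%), and among those above 2, 9 of 19 (47.4%). The most strongly cycling transcripts were therefore split about evenly.

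The share damped moved with single WT mice. For each mouse, the levels of the 10108 diurnal probe sets were set against the mean of all 20 arrays, turned by the sign of the average change and averaged. At 0 h this mean level was -0.163 ± 0.0417 (SD, n = 5) in WT and -0.176 ± 0.00439 in KO. At 12 h it was 0.195 ± 0.0404 in WT and 0.145 ± 0.0075 in KO. The KO mice lay between -0.18 and -0.169 at 0 h and between 0.136 and 0.156 at 12 h, a much narrower range than the WT mice. On this score WT varied more than KO, which is where the choice by average change would favour damped signs. How far that choice bears on the share damped was not tested. WT mouse 80 at 0 h (-0.229) and WT mouse 170 at 12 h (0.253) stood at the far ends. Without these 2 mice, whose position makes the WT change large, 51.4% of diurnal probe sets were damped, 327 damped and 235 enlarged ones had an unadjusted p under 0.05, and the median turned difference was -0.00456. The share was 54.9% without mouse 80 alone and 56.2% without mouse 170 alone. Leaving out the WT mice at the near ends raised it, to 62.6% without mouse 167 and 61.5% without mouse 145, and it was 57.2% without KO mouse 1.

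**Figure D2:**
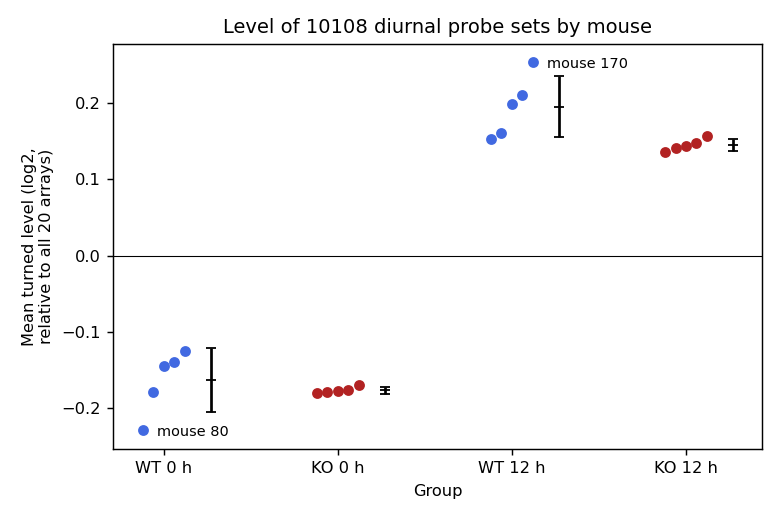
Mean turned level of the 10108 diurnal probe sets in each mouse, in log2 relative to the mean of all 20 arrays, with 1 point per mouse and the mean and SD of each group beside it. The WT mice spread from -0.229 to -0.125 at 0 h and from 0.153 to 0.253 at 12 h, while the KO mice lay within -0.18 to -0.169 and 0.136 to 0.156. The probe sets were chosen for their difference between the times, so the distance between the times is not of interest. The comparison of genotypes is not free of that choice either, since it favours damped signs where WT varies more than KO.

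Core clock genes had large diurnal changes in both genotypes. Of 15 measured members 14 were called as diurnal, with a median average change of 1.23 in size, and 7 of these were damped and 7 enlarged. None of the 15 differed between the genotypes at the adjusted threshold. *Rora*, an activator of *Arntl*, was the only one at an unadjusted p under 0.05, and it was not called as diurnal.

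*Arntl*, which encodes BMAL1, was between 9.27 and 9.63 in all 10 mice at 0 h. At 12 h it read 6.56, 8.32, 6.86, 7.83 and 7.12 in WT mice 111, 168, 167, 169 and 170, and 6.74, 6.78, 6.85, 6.88 and 7.04 in the KO mice 55, 166, 109, 18 and 110. WT mice 168 and 169 were high, and the other 3 WT mice lay around the KO mice. The diurnal change was -2.14 in WT and -2.56 in KO, and the difference of -0.42 had a 95% interval from -1.04 to 0.19 (limma adjusted p = 0.822). It shrank to -0.18 without WT mouse 168. For *Clock*, its partner, the changes were -0.44 and -0.77, and their difference of -0.33 shrank to -0.10 without WT mouse 80. That of *Rora* went from -0.40 to -0.24 without the same mouse.

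Among the genes that these activators drive, *Per1* went from 6.72 to 7.20 in WT at 0 h to 8.78 to 9.41 at 12 h, and in KO from 6.51 to 7.10 to 8.52 to 8.88. Its change was 2.02 in WT and 1.86 in KO, a difference of -0.16 with an interval from -0.55 to 0.23, which shrank to -0.05 without WT mouse 170. *Per2* (-0.09), *Per3* (-0.12) and *Cry2* (-0.04) also differed by small negative amounts, and *Cry1*, which changed by -0.21 in WT and -0.53 in KO, by -0.32. *Per1* and *Per2* turned to differences of 0.01 and 0.03 without WT mice 80 and 170. The repressors of *Arntl* leaned the other way, with 1.38 in WT and 1.57 in KO for *Nr1d1* and 2.59 and 2.87 for *Nr1d2*. Leaving out 1 mouse took these differences of 0.19 and 0.28 to -0.0033 (without KO mouse 55) and 0.16 (without WT mouse 147). All 5 KO mice had *Nr1d2* between 10.26 and 10.38 at 12 h, against 10.04 to 10.35 in WT, so the groups overlapped. *Ciart*, a repressor of CLOCK and BMAL1, had the largest change of the clock genes in WT, 3.06 against 2.56 in KO. Its difference of -0.49 had an interval from -1.09 to 0.10 and an exact permutation p of 0.15 (two-sided, all regroupings of 5 against 5 mice within each time).

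The output factors of the PAR bZIP family and their antagonist had slightly larger changes in KO, 4 of 4. *Dbp* changed by 2.80 in WT and 2.99 in KO, *Tef* by 1.70 and 1.81, *Hlf* by 0.50 and 0.62, and *Nfil3*, which competes with them for the D-box, by -1.47 and -1.65. These 4 differences lay between 0.12 and 0.20 in size, and every 95% interval included 0. That of *Dbp* shrank from 0.20 to 0.01 without WT mouse 168 that of *Nfil3* from -0.18 to -0.10 without KO mouse 143, and that of *Hlf* from 0.12 to 0.06 without WT mouse 169. *Dbp* ranged from 9.90 to 11.13 in the WT mice and from 10.53 to 11.26 in the KO mice at 12 h. Of 13 further strongly diurnal output genes measured, 12 were called as diurnal, 7 of them damped and 5 enlarged. At an unadjusted p under 0.05 there were 2, both negative, against 3.30% of all probe sets in that direction. They were *Slc45a3*, with a difference of -0.65 (-0.80 to -0.52 with 1 mouse left out), and *Lonrf3*, with -0.45 (-0.57 to -0.31). *Usp2*, a deubiquitinase, changed by 2.46 in WT and 2.67 in KO (a difference of 0.21, or 0.07 without WT mouse 145), and *Wee1*, a cell cycle kinase under clock control, by 2.53 and 2.48. In *Lpin1*, a phosphatidate phosphatase, the change was 3.09 in WT and 2.53 in KO. Intervals of this width do not show that WT and KO clocks are the same.

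**Figure D3:**
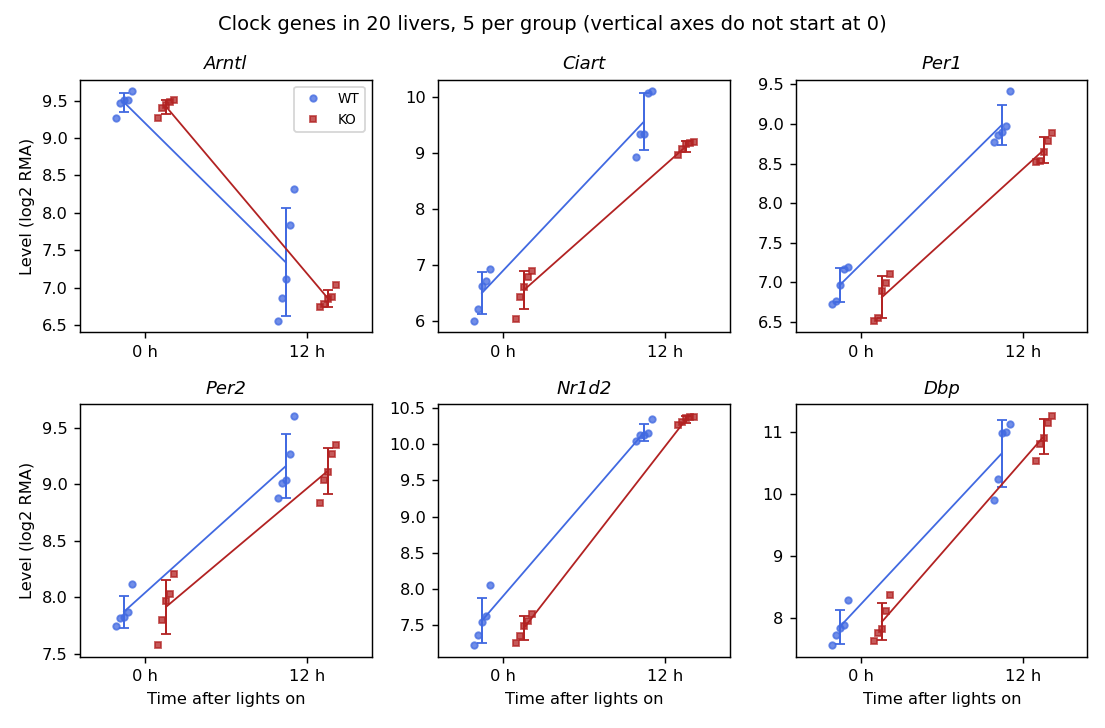
Log2 levels of *Arntl*, *Ciart*, *Per1*, *Per2*, *Nr1d2* and *Dbp* in each mouse at 0 h and 12 h, with lines joining the group means and bars of 1 SD (n = 5). WT is in blue and KO in red, and all 6 genes go the same way in both genotypes. The lines of *Arntl* and *Ciart* diverge most, with differences of -0.42 and -0.49.

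Of the gluconeogenic genes, 11 were measured and 10 called as diurnal, all of them higher at 12 h. Of these 10, 7 were damped in KO and 3 enlarged, against 59.2% damped of all diurnal probe sets. Their median turned difference was -0.124, against -0.035 over all diurnal probe sets. *Ppargc1a*, the coactivator that fasting induces through CREB, went in WT from 6.96, 7.10, 7.40, 7.60 and 7.69 to 7.98, 8.09, 8.18, 8.36 and 8.38. In KO it went from 7.23, 7.33, 7.62, 7.75 and 7.78 to 7.55, 7.81, 7.84, 7.88 and 8.04. The times did not overlap in WT and did overlap in KO. The changes were 0.85 and 0.28, a difference of -0.56 with an interval from -0.96 to -0.16 (limma adjusted p = 0.614, exact permutation p = 0.017). Here and in the lists below, exact p are given for members named for a small limma p from the same values. They describe that choice and add no support to it. *Got1*, the cytosolic aspartate aminotransferase, changed by 0.93 in WT and 0.48 in KO, and *Foxo1* by 1.25 and 0.99. *Pck1*, the key enzyme of the pathway and a classical CREB target, changed by 1.26 in WT and 1.42 in KO, a difference of 0.16 that shrank to 0.01 without KO mouse 77. *G6pc*, which releases free glucose, was not called as diurnal, with changes of 0.10 and -0.04.

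Genes of amino acid and urea metabolism had a more negative change in KO throughout. Of 12 diurnal members 8 were damped, against 59.2% of all diurnal probe sets. All 20 measured members had a negative difference, with a median of -0.127. Bright probe sets leaned the same way, since 58.3% of the 6422 probe sets with mean levels above 8.6 had a negative difference, with a median of -0.0266. Over all the alternatives run 17 to 20 of the 20 stayed negative. At an unadjusted p under 0.05 there were 2 of the 20, against 3.30% of all probe sets in that direction.

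One of them was *Slc43a1*, a transporter of branched-chain and other large neutral amino acids, which had one of the smallest p of all probe sets. It read 7.94, 7.95, 7.97, 8.04 and 8.10 in WT at 0 h and 8.79, 9.05, 9.15, 9.15 and 9.54 at 12 h. In KO it read 7.87, 8.02, 8.03, 8.06 and 8.49 at 0 h and 8.17, 8.18, 8.46, 8.47 and 8.49 at 12 h. All KO mice lay below all WT mice at 12 h, and the groups overlapped at 0 h. The change of 1.14 in WT stood against 0.26 in KO, a difference of -0.88 with an interval from -1.23 to -0.53 (limma adjusted p = 0.475, exact permutation p = 0.0021). Set against each 0 h batch alone, the difference was between -1.23 and -0.78. Here and below, such values share the same term at 12 h, and each 0 h batch held only 1 or 2 mice per genotype. They are therefore not replicates of each other. The other was *Aass*, the first enzyme of lysine breakdown, with 0.23 in WT and -0.10 in KO. The urea cycle enzymes differed little, with -0.10 for *Cps1*, -0.11 for *Otc* and -0.15 for *Asl* and for *Arg1*.

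In glycogen metabolism 9 of 13 members had a negative difference. *Ppp1r3c*, which targets a phosphatase to glycogen, changed by -1.01 in WT and -1.94 in KO, the largest difference of the list (-0.93, exact permutation p = 0.094). *Phkb*, a subunit of phosphorylase kinase, went from 9.29 to 9.73 to 9.56 to 9.88 in WT and from 9.42 to 9.76 to 9.09 to 9.54 in KO. Its changes of 0.31 and -0.23 thus ran in opposite directions, and at 12 h the KO mice lay below the WT mice. Glycogen synthase, *Gys2*, changed by 0.68 in WT and 0.86 in KO.

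PPAR alpha, the fatty acid receptor that is active in fasting, had targets with a median difference of -0.289 over 20 measured members, the lowest of the 33 lists of functions. Of the 20, 13 were negative and 5 of them had an unadjusted p under 0.05, against 3.30% of all probe sets. The most negative values were those of the microsomal omega-hydroxylases *Cyp4a14*, *Cyp4a31* and *Cyp4a10*, of *Vnn1* and of *Cd36*. The enzymes of mitochondrial and peroxisomal beta-oxidation lay near 0. Over 23 measured genes of fatty acid oxidation the median difference was 0.00996, with 4 of 11 diurnal members damped, and *Cpt1a*, the gate of mitochondrial import, changed by 0.83 in WT and 1.07 in KO. *Angptl4*, an inhibitor of lipoprotein lipase, also differed little, with 1.03 and 1.13.

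*Cyp4a14*, a fatty acid omega-hydroxylase, had the largest difference of the PPAR alpha targets. At 0 h it was between 6.50 and 7.68 in WT and between 5.92 and 6.55 in KO. At 12 h it was 8.01, 8.38, 8.99, 9.04 and 11.87 in WT and 6.01, 6.55, 6.78, 7.21 and 7.29 in KO. All KO mice lay below all WT mice at 12 h, and WT mouse 170 stood far above the other WT mice. The change was 2.37 in WT and 0.53 in KO, and the difference of -1.85 (interval -3.22 to -0.48, exact permutation p = 0.087) became -1.19 without WT mouse 170. *Cyp4a31* (2.46 and 1.28) and *Cyp4a10* (1.87 and 1.02), which are close in sequence to it and may share probes, leaned the same way, with the difference of *Cyp4a10* going from -0.84 to -0.55 without KO mouse 110.

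*Cd36*, a fatty acid transporter, was between 9.57 and 10.72 in WT at 12 h and at 8.43, 9.12, 9.16, 9.20 and 9.29 in KO, with no overlap. At 0 h the KO mice, at 9.02 to 9.95, overlapped the WT mice. Its changes were 0.54 and -0.59, a difference of -1.13 with an exact permutation p of 0.011, and against single 0 h batches the difference ranged from -1.93 to -0.22. *Vnn1*, a pantetheinase, changed by 0.96 in WT and -0.41 in KO, with overlap at 12 h, where WT mouse 169 read 7.59 and the KO mice 6.22 to 8.13. *Pdk4*, which shuts off pyruvate dehydrogenase in fasting, was lower at 12 h in both genotypes, with -1.10 in WT and -1.75 in KO.

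*Igfbp1*, a binding protein for insulin-like growth factors whose gene insulin represses, had the largest difference of the genes named here. In WT it was 8.04, 8.59, 9.17, 10.08 and 10.74 at 0 h and 9.22, 9.46, 9.90, 10.28 and 10.31 at 12 h. In KO it was 8.14, 10.01, 10.09, 10.50 and 11.03 at 0 h and 7.53, 7.96, 8.40, 8.54 and 9.35 at 12 h. The mice at 0 h were spread widely in both genotypes, and the groups overlapped at both times. The changes were 0.51 and -1.60, a difference of -2.11 with an interval from -3.52 to -0.70 (limma adjusted p = 0.604, exact permutation p = 0.018). Against single 0 h batches the difference ranged from -3.92 to 0.46, so 1 of the 4 batches gave the opposite sign. *Irs1*, the docking protein of the insulin receptor, leaned to the positive side, with -0.27 in WT and 0.14 in KO.

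In cholesterol synthesis most diurnal changes were enlarged. Of 19 measured genes 12 were called as diurnal, 11 of them lower at 12 h. In KO 11 of the 12 were enlarged, against 40.8% of all diurnal probe sets, with a median turned difference of 0.192. All 19 had a negative difference, with a median of -0.17, against 58.3% negative and -0.0266 in the probe sets above 8.6. Over all the alternatives run 17 to 19 of them stayed negative. The differences of single genes were small next to their error, and 2 of 19 had an unadjusted p under 0.05, against 3.30% of all probe sets in that direction. They were *Msmo1*, a sterol oxidase, and *Srebf2*, the transcription factor that drives the pathway, and neither was called as diurnal. *Srebf2* changed by 0.25 in WT and 0.00 in KO, and *Msmo1* by 0.04 and -0.32. *Hmgcs1*, the synthase ahead of the committed step, changed by -0.62 in WT and -0.89 in KO, *Fdps* by -0.41 and -0.75, and *Mvd* by -0.60 and -1.06. Without WT mouse 167 the difference of *Hmgcs1* shrank from -0.27 to -0.02 and that of *Mvd* from -0.46 to -0.30. In lipogenesis, which the sister factor SREBP1c drives, 6 of 10 diurnal members were damped, against 59.2% of all diurnal probe sets. *Fasn* differed by -0.04. *Cyp7a1*, the rate-limiting enzyme of bile acid synthesis, changed by 1.14 in WT and 1.16 in KO.

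**Figure D4:**
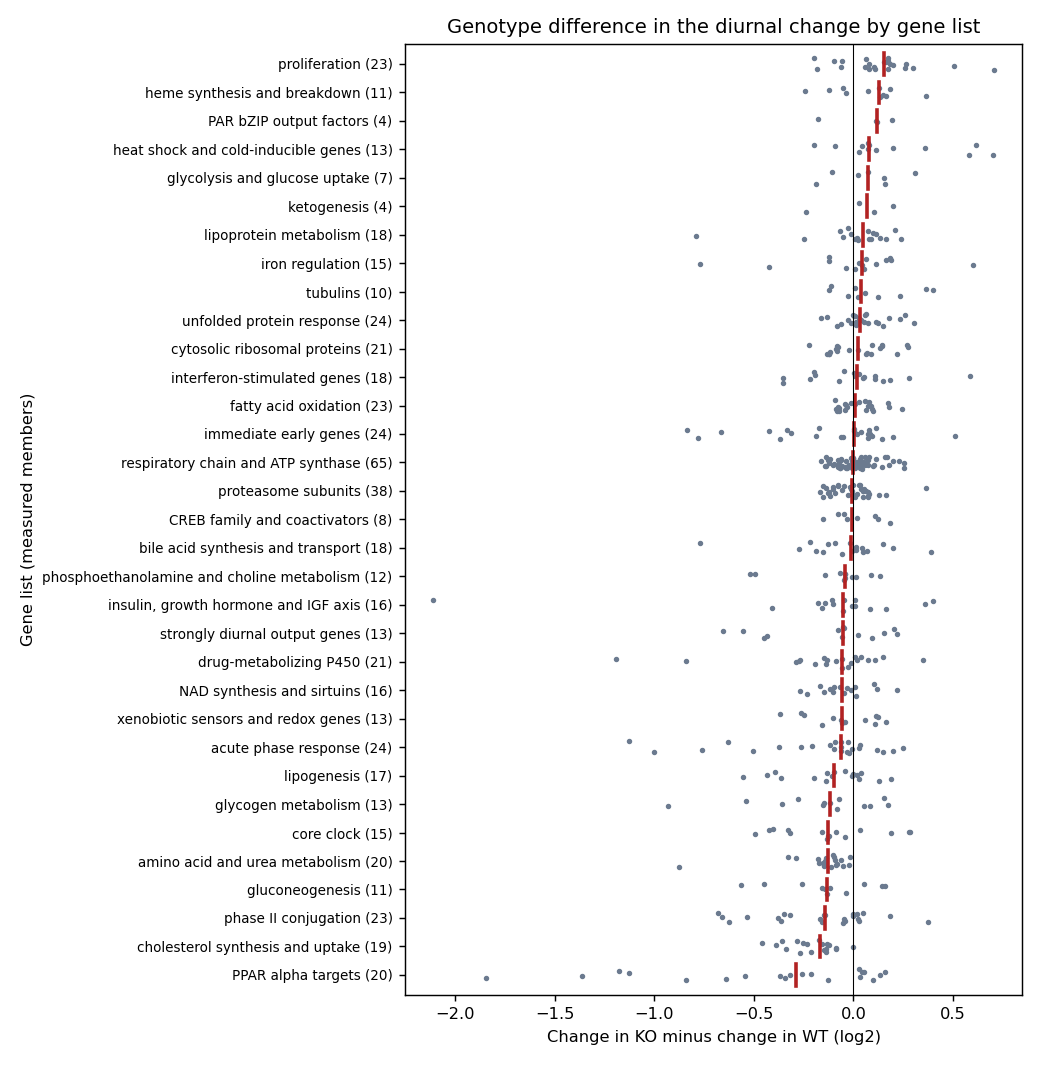
Change in KO minus change in WT (log2) for each measured member of the 33 lists of functions, with the number of measured members in brackets and the median of each list as a red bar. The lists run from proliferation (median 0.152) at the top to PPAR alpha targets (-0.289) at the bottom, and all 19 cholesterol genes and all 20 amino acid and urea genes lie left of 0. No single point passed the adjusted threshold.

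Of the heat shock and cold-inducible genes 7 of 7 diurnal ones were damped, against 59.2% of all diurnal probe sets, and 6 of the 7 were lower at 12 h. A positive difference was seen in 11 of 13 measured members, and 3 of them had an unadjusted p under 0.05, against 3.53% of all probe sets in that direction. *Hsph1*, a chaperone of the HSP110 family, was between 10.57 and 11.01 in WT and between 10.20 and 10.73 in KO at 0 h. At 12 h it was 9.59, 10.04, 10.05, 10.12 and 10.14 in WT and 9.88, 10.27, 10.50, 10.56 and 10.82 in KO. The WT times did not overlap, the KO times did. The change of -0.76 in WT stood against -0.05 in KO, a difference of 0.70 with an exact permutation p of 0.0063.

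Other inducible chaperones leaned the same way. *Hspa1a*, the inducible HSP70, changed by -0.61 in WT and -0.03 in KO, and *Dnajb1*, its cochaperone, by -0.39 and 0.22. *Bag3*, which links HSP70 to autophagy and is no member of the list, changed by -0.36 and 0.21. These genes were lower in KO than in WT on average at 0 h and higher at 12 h, with overlapping mice at both times. *Dnajb1* and *Bag3* were not called as diurnal, so neither counts as damped. Both were also among the genes named for the smallest p in these same data and add no support. *Cirbp*, which cold induces, went the opposite way with 0.38 in WT and 0.18 in KO. In the unfolded protein response 12 of 17 diurnal genes were damped, against 59.2% of all diurnal probe sets. Their median turned difference was -0.0251, and 0 of 24 members had an unadjusted p under 0.05 by limma.

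Immediate early genes, many of them known CREB targets, gave a mixed result. Of 24 measured, 13 had a positive and 11 a negative difference. Of the 6 called as diurnal, 5 were damped. The 3 with an unadjusted p under 0.05, against 3.30% of all probe sets in that direction, were *Egr1* (-0.21 in WT and -1.04 in KO), *Ier2* (0.34 and -0.33) and *Zfp36* (0.81 and 0.38). The difference of -0.83 in *Egr1* moved with KO mouse 144, which read 9.78 at 0 h against 7.31 to 8.18 in the other KO mice. It was -0.44 without that mouse and ranged from -2.46 to 0.01 against single 0 h batches. Of the 3 with a full CRE in the promoter, *Dusp1*, a phosphatase of MAP kinases, changed by 1.16 and 0.85, *Btg2* by 0.03 and -0.34, and *Maff* by -0.13 and -0.19. *Fos* and *Junb* differed by 0.11 and 0.07. Among the CREB family and its coactivators 5 of 8 members were diurnal and all 5 were damped, by at most 0.18, against 59.2% of all diurnal probe sets. Their median turned difference was -0.108. A median of 5 members is the value of 1 of them, and -0.108 is that of *Crem*, the disrupted gene. It is therefore no agreement of the family with *Crem*. At an unadjusted p under 0.05 by limma there were 0 of 8. *Creb1* changed by 0.30 in WT and 0.22 in KO.

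Phase II conjugation enzymes leaned to the negative side, 17 of 23, with 5 members at an unadjusted p under 0.05 in that direction (3.30% of all probe sets) and 1 in the other (3.53%). *Sult1d1*, a sulfotransferase, changed by 0.78 in WT and 0.12 in KO, *Gstt3*, a glutathione transferase, by 0.67 and -0.01, and *Nat2*, an acetyltransferase, by -0.05 and -0.67. *Gstp1* was the exception with -0.40 and -0.03, and its difference went from 0.37 to 0.24 without WT mouse 170. In WT mouse 170 at 12 h it read 12.84, below the other WT mice (13.41 to 13.59). Some members of these families are close in sequence, so their probe sets may not be separate measurements. Drug-metabolizing P450 genes had 14 of 21 negative differences and 3 of 8 diurnal members damped.

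The large housekeeping complexes were split evenly. Cytosolic ribosomal proteins had 9 damped and 9 enlarged of 18 diurnal members, the respiratory chain and ATP synthase 26 and 25 of 51, and proteasome subunits 14 and 15 of 29. Their median differences were 0.024, -0.00214 and -0.00453. Most of them were lower at 12 h in both genotypes. *Ndufa11* of the respiratory chain, with the full CRE shown above, changed by -0.62 in WT and -0.42 in KO (unadjusted limma p = 0.0435, exact permutation p = 0.017). Proliferation genes had the highest median of the lists, 0.152, with 18 of 23 positive. Damped were 4 of their 7 diurnal members, against 59.2% of all diurnal probe sets, with a median turned difference of -0.162. Of the 23 only *Ccne1*, a cyclin of the G1 to S transition, had an unadjusted p under 0.05, with 0.13 in WT and 0.64 in KO. Dimmer probe sets leaned to the positive side too, since of those with a mean level between 6.05 and 7.17 only 40.9% were negative, with a median of 0.0354.

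Beyond the lists, the rule named 12 genes in each direction by their smallest unadjusted p, so the p given for them describe that choice. On the positive side *Cib1*, a calcium and integrin binding protein, came first. It read 9.40, 9.57, 9.61, 9.83 and 9.95 in WT at 0 h and 8.69, 8.84, 8.84, 9.01 and 9.07 at 12 h, with no overlap. In KO it read 9.13, 9.17, 9.29, 9.31 and 9.57 at 0 h and 9.08, 9.18, 9.19, 9.25 and 9.25 at 12 h, and the times overlapped. The change of -0.78 in WT stood against -0.11 in KO, a difference of 0.67 with an interval from 0.38 to 0.97 (limma adjusted p = 0.475, exact permutation p = 0.00025). Against single 0 h batches the difference was 0.33 to 1.11.

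*Slc25a36*, a mitochondrial carrier of pyrimidine nucleotides, carries the full CRE shown above. In WT it was 7.08, 7.11, 7.22, 7.35 and 7.49 at 0 h and 7.07, 7.30, 7.45, 7.48 and 7.48 at 12 h. In KO it was 6.69, 6.74, 7.05, 7.06 and 7.19 at 0 h and 7.54, 7.66, 7.74, 7.88 and 7.92 at 12 h. The times overlapped in WT and not in KO, and at 12 h all KO mice lay above all WT mice. The changes were 0.10 and 0.80, and their difference of 0.70 had an interval from 0.38 to 1.02 (limma adjusted p = 0.475, exact permutation p = 0.00031). *Impdh1*, of guanine nucleotide synthesis, ran in opposite directions with -0.31 in WT and 0.24 in KO. The other positive genes differed by 0.36 to 0.61, among them *Ip6k1*, *Trim65*, *Pdlim7* and the long noncoding RNA *Morrbid*.

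On the negative side *Ccng2*, an atypical cyclin of cells that leave the cycle, stood beside *Slc43a1*. It was between 8.52 and 8.94 in WT and between 8.59 and 9.40 in KO at 0 h. At 12 h it was 8.07, 8.10, 8.34, 8.51 and 8.52 in WT and 7.15, 7.48, 7.56, 7.73 and 7.78 in KO, with no overlap. The changes were -0.35 and -1.32, an enlarged change in KO with a difference of -0.97 (interval -1.38 to -0.55, limma adjusted p = 0.475, exact permutation p = 0.0013). Without KO mouse 1 it was -0.83. *Gypc*, a membrane skeleton protein, changed by 0.55 in WT and -0.27 in KO, and *Tceal8* by -0.04 and -0.74. The remaining ones differed by -0.62 to -0.40.

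**Figure D5:**
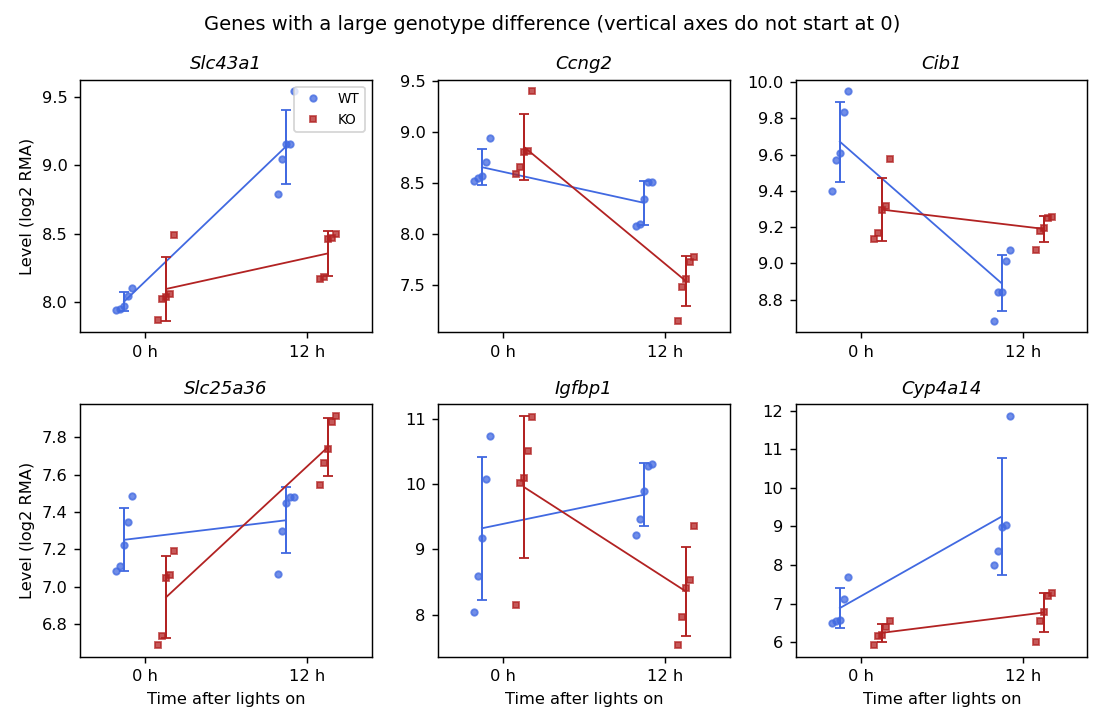
Log2 levels of *Slc43a1*, *Ccng2*, *Cib1*, *Slc25a36*, *Igfbp1* and *Cyp4a14* in each mouse at 0 h and 12 h, with lines joining the group means and bars of 1 SD (n = 5). WT (blue) and KO (red) lines are far from parallel. Genotypes do not overlap at 12 h in any of these genes other than *Igfbp1*, and WT mouse 170 is the high point of *Cyp4a14*.

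In whole liver, fewer cells of a type and less RNA per cell cannot be told apart. The summed level of 12 stellate cell and matrix markers was 13.3 to 13.32 in WT and 13.17 to 13.31 in KO at 0 h, and 13.29 to 13.34 and 13.05 to 13.19 at 12 h, so KO lay below WT without overlap at 12 h only. Of the 12, 8 had a negative difference, and *Dcn* (-0.27) and *Reln* (-0.25) had an unadjusted p under 0.05. The summed sinusoidal endothelial markers were 13.51 to 13.8 in WT and 13.38 to 13.6 in KO at 12 h, with 11 of 14 negative. KO leaned lower at 0 h already, with 13.49 to 13.67 against 13.65 to 13.73 in WT. *Emcn*, an endothelial sialomucin outside that list that was named for its small p, changed by -0.03 in WT and -0.65 in KO. Kupffer cell markers went the opposite way, 10 of 13 positive and 9 of 11 diurnal ones damped, against 59.2% of all diurnal probe sets. Only 1 of the 13 had an unadjusted p under 0.05 by limma. *Cd5l*, a secreted macrophage protein, led them with -0.49 and -0.05, and *Clec4f* followed with -0.74 and -0.39. The summed Kupffer cell markers at 12 h overlapped, with 12.91 to 13.25 in WT and 12.96 to 13.4 in KO. Hepatocyte markers had a median difference of -0.022. Medians of the lists for cholangiocytes, T and NK cells, B cells, neutrophils, erythroid cells and pancreas lay between -0.0337 and 0.09, with 1 gene at an unadjusted p under 0.05, *Ms4a1* of B cells (-0.65), which was dim. The part of cell composition in the differences above was not tested.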

How the data were processed

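The values are on the log2 scale, 1 per probe set and array, as the authors deposited them after RMA, which the submitters' processing notes name with no version. The sources used here do not say whether liver arrays went through RMA alone. Background is already subtracted, and no level was set against that of another probe set. Precision is limited by the number of arrays, 5 per group.

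Of 35557 probe sets, 9868 were empty on all arrays, and the other 25689 were tested without a filter. Names came from the platform annotation, and the RefSeq gene table (GRCm38.p6) altered 0 symbols. Those annotated to several genes (232) or to no gene (4680) were counted but not named. The brightest probe set stood for a gene. Columns of other samples numbered 0.

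Samples were grouped by genotype and time in their labels. limma 3.58.1 in R 4.3.3 (lmFit, eBayes) fitted 4 group means over all 20 arrays, with the contrast KO change minus WT change and Benjamini-Hochberg adjustment over all probe sets (threshold 0.05). Intervals are at 95%. The code was tested on made-up data with known answers. For named genes all 63504 regroupings of 5 against 5 mice within each time were enumerated (exact permutation test, two-sided, smallest possible p 3.1e-05), and the KO minus WT difference at 12 h was set against that in each 0 h batch. These exact p are not adjusted over the 82 genes. They are exact only where genotype has no effect at either time, and the regroupings did not keep the 0 h batches.

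The rule named *Crem*, the clock and PAR bZIP genes, 12 genes in each direction with the smallest unadjusted p among probe sets with 1 gene above the median brightness, and up to 3 members per list and direction at an unadjusted p under 0.05. Any other gene was named with its values already in view. The lists and their members, the rule and the tests were chosen with earlier results of these data known.

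Alternatives were batch as a fixed block, bright probe sets only, quantile normalization, median centring, array weights, a robust prior with a trend on intensity, a stricter choice of diurnal probe sets, all probe sets of a gene, leaving out each mouse, and leaving out WT mice 80 and 170 together. With batch as a block the diurnal probe sets of the fit without it were kept, since the average change and the batch cannot be separated. Labels name separate mice, so the spread is between animals.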

Additional observations from a re-analysis of the deposited data

Results flagged for a closer look

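Over the named genes, 392 groups of 5 mice were examined for a mouse far from the other 4 (a gap to its neighbour of over 0.71 of the group's range). A total of 20 met this, and chance gives about 1 in 20 groups, or 19.6. WT mouse 80 at 0 h was low for *Clock* at 8.704 and *Rora* at 8.966 and high for *Gypc* at 8.541. WT mouse 170 at 12 h was high for *Cyp4a14* at 11.87 and low for *Gstp1* at 12.84. WT mouse 167 at 12 h was low for *Hsph1* at 9.588 and high for *Nat2* at 8.017 and *Tceal8* at 9.446. WT mouse 168 at 12 h was high for *Emcn* at 7.698 and low for *Hspa8*, the constitutive HSP70, at 11.95. WT mouse 111 at 12 h was high for *Ier2* at 8.519. At 0 h WT mouse 78 was high for *Per3* at 7.027 and WT mouse 146 for *Phkb* at 9.734.

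Among the KO mice at 0 h, mouse 1 was high for *Ccng2* at 9.403, and mouse 143 was low for *Ascl5* at 7.208 and *Tmem218* at 8.475. Among those at 12 h, mouse 55 was low for *Cd36* at 8.433 and for *Slc27a1*, a fatty acid transport protein, at 7.614. Mouse 110 was low for *Per3* at 8.521 and mouse 166 for *Irs1* at 8.391.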

How the results depend on the processing

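limma called 0 probe sets in every alternative run, and the smallest adjusted p of any gene named was 0.139, without WT mouse 167. At an unadjusted p under 0.05 there were 1021 among bright probe sets only, where fewer were tested. The share damped was 55.2% to 60.9% with other normalization, weights or block and 54.9% (without WT mouse 80) to 62.6% (without WT mouse 167) with 1 mouse left out. Without WT mice 80 and 170 the median turned difference moved to -0.00456 and the damped probe sets at an unadjusted p under 0.05 from 570 to 327. With the stricter choice of diurnal probe sets, where fewer entered, these were 81 damped and 47 enlarged, and 56.2% of all were damped. In the fit without both mice *Per1* (0.008933), *Per2* (0.02724), *Bhlhe40* (0.02912), *G6pc* (0.009303), *Wee1* (0.006747) and *Nampt* (0.043) became positive. *Wee1* also did with quantile normalization (0.004255). With 1 mouse left out the range was -0.1419 to 0.0521 for *Wee1*, -0.1036 to 0.0199 for *Cry2*, -0.1326 to 0.06584 for *Nampt*, -0.1705 to 0.0261 for *Per2* and -0.003305 to 0.3295 for *Nr1d1*. The causes were not tested. Of 98 genes, 6 took the opposite sign in 7 of 683 values under other settings and 5 in 8 of 1960 values with 1 mouse left out. Medians of 43 lists took the opposite sign in 27 of 341 and 71 of 860 values. Centring each array moved the median of all differences to -0.025. No paired analysis was possible because mouse numbers are not shared between the groups.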

Other observations

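Among functions not described above, the acute phase list had 6 damped and 7 enlarged of 13 diurnal genes. The metallothioneins *Mt1* and *Mt2*, which bind zinc and copper, had its largest differences, with changes of 1.94 in WT and 0.81 in KO for *Mt1* and 1.97 and 0.97 for *Mt2*, both at an unadjusted p above 0.05. *Fga*, the fibrinogen alpha chain, was the member with an unadjusted p under 0.05, with -0.60 and -0.97. Of the genes of lipoprotein metabolism, 5 of 12 diurnal ones were damped, and *Lpl*, lipoprotein lipase, changed by -0.68 in WT and -1.47 in KO. *Lipg*, the endothelial lipase, changed by 1.59 and 1.83.

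In heme synthesis and breakdown 3 of 7 diurnal genes were damped. *Alas1*, the rate-limiting enzyme of heme synthesis in liver, changed by 1.44 in WT and 1.81 in KO. In iron regulation 5 of 10 were damped, and *Hjv*, hemojuvelin, changed by -0.39 and -0.81. *Chka*, a choline kinase, changed by -1.44 and -1.96. In NAD synthesis, 5 of 8 diurnal genes were damped, and *Nampt*, the salvage enzyme under clock control, changed by 1.46 and 1.41. *Bst2*, an interferon-stimulated gene, was between 10.62 and 11.14 in WT and between 10.53 and 10.93 in KO at 0 h, and between 9.51 and 10.39 and between 10.28 and 10.40 at 12 h. Its changes were -1.01 in WT and -0.42 in KO (exact permutation p = 0.011). Of the tubulins, *Tubb2a* had the largest diurnal change, -2.77 in WT and -2.75 in KO. None of these differences passed the adjusted threshold.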
